A study of Mus musculus with 10 samples.

Results

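The genes that repair platinum lesions and other DNA damage were examined in dorsal root ganglia (DRG) of C57BL/6 mice. These ganglia house the cell bodies of the neurons that sense touch, pain and temperature. The set holds 47 genes, of 40481 distinct genes in the deposited count table, each found there in 1 row by its symbol. The genes were listed by name for their function and not by a threshold on their values, but the list was drawn up with earlier results of these data known. Total RNA was sequenced in 5 libraries from mice treated with oxaliplatin, labelled 10 mg/kg and collected after 8 weeks of treatment, and in 5 libraries from mice given vehicle. Every RNA sample had passed an integrity threshold of 8 before sequencing, and the labels give no age, sex or spacing of doses. Ganglion tissue mixes neurons with satellite glia, Schwann cells, vessels and immune cells.

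Oxaliplatin binds DNA bases and ties neighbouring guanines of one strand together, and less often it ties the strands to each other. Nucleotide excision repair cuts out the first kind of lesion. Its recognition proteins find the damage in the whole genome or at a stalled RNA polymerase, a helicase complex opens the strands, and nucleases cut on both sides. Crosslinks between strands go to the Fanconi pathway, which works mainly in dividing cells, while translesion polymerases copy past lesions that remain. Sensory neurons do not divide, and damage to them underlies the neuropathy for which the drug is known.

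Library totals ran from 52963470 to 60984426 counts, and the 47 genes took 0.0757 to 0.0916% of them. Markers of sensory neurons were abundant in every library, with a summed level of 14010 to 17021 CPM (counts scaled to a common library total, with TMM factors for composition) after oxaliplatin and 16290 to 18905 CPM after vehicle. Schwann cell markers summed to 9283 to 12306 CPM after oxaliplatin and 8697 to 11542 CPM after vehicle. Adipocyte markers stood apart in 1 library, at 674 CPM in oxaliplatin replicate 1 and 8.01 to 46.4 CPM in the other 9. Skeletal muscle markers summed to 711 CPM in the same library and 9.53 to 24.4 CPM in the other 4 oxaliplatin libraries, against 93.9 to 445 CPM in vehicle libraries, and 0 of these 6 markers passed the test in either direction. In bulk tissue, fewer cells of a type and less RNA per cell cannot be told apart.

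All 47 genes had enough counts to be tested, but their levels spanned a wide range. Compared per exon length, Ddb1, the adaptor of the damage-binding ubiquitin ligase, had the highest level, with means of 40.8 CPM per kilobase after oxaliplatin and 38.4 CPM per kilobase after vehicle. The nuclease subunit Ercc1 (20.5 CPM per kilobase after oxaliplatin, 19.2 after vehicle) and Parp1, the sensor of strand breaks (17.8 after oxaliplatin, 18.3 after vehicle), came next. At the low end were the Fanconi genes Fanci (0.0719 CPM per kilobase after oxaliplatin, 0.0537 after vehicle) and Brip1 (0.0682 after oxaliplatin, 0.0534 after vehicle). Fanci had 4 to 44 counts per library and Brip1 had 11 to 46, against 11704 to 16538 for Ddb1. The standard error of the log2 fold change ran from 0.06 for Ercc1 to 0.53 for Fanci. Exons of 28 of the 47 genes overlap those of another gene in the reference annotation, over more than 10% of their length for 11 genes, and the overlaps of Apex1, Ddb2, Rev1 and Fanca are given with their values. The other 7 are Ercc2, Lig3, Fancc, Fanci, Fancf, Fancl and Ogg1, whose counts may hold reads of the overlapping gene. After oxaliplatin, Fanci averaged 0.415 CPM and its partner Polg 8.47 CPM, and Fancf 0.868 CPM and its partner Gas2 13.2 CPM. Ercc2 averaged 3.92 CPM and its tested partners Klc3 and Gm26852 0.157 and 0.300 CPM. The partners of Lig3, Fancc, Fancl and Ogg1 were Rffl (14.4 CPM), 2010111I01Rik (114 CPM) and Gm16133 (1.71 CPM), Vrk2 (1.90 CPM) and Camk1 (33.2 CPM).

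**Figure D1:**
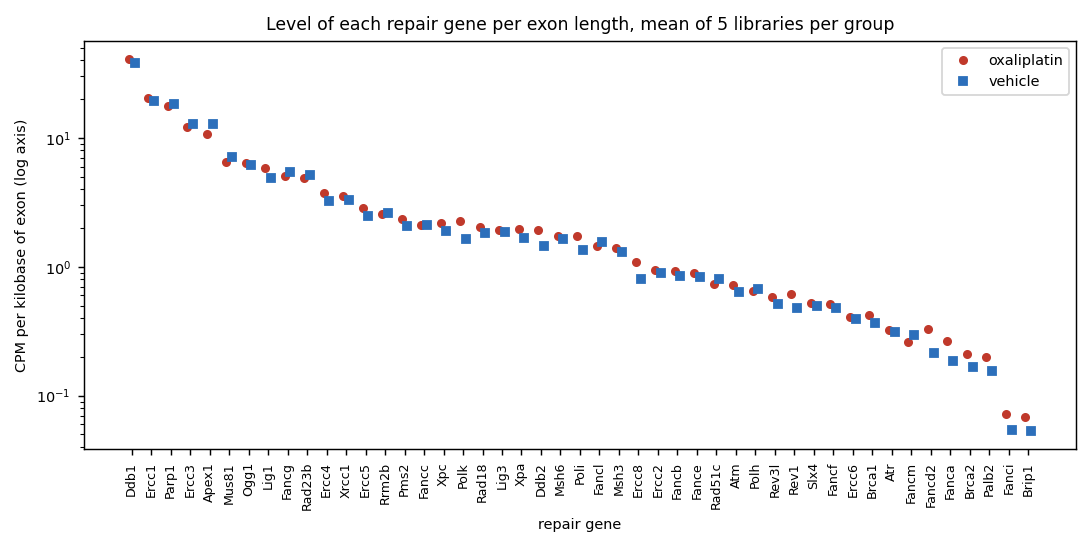
Mean level of each of the 47 repair genes, in CPM per kilobase of exon on a log axis, after oxaliplatin (circles) and after vehicle (squares), n = 5 libraries each, ordered from high to low. Ddb1 stands at about 40.8 after oxaliplatin, Fanci and Brip1 lie below 0.1, and the symbols of the groups lie close together for most genes.

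The comparison asked whether transcripts of the repair genes differed after the drug. None of the 47 passed the threshold, either higher (0 of 47, where 1.27% of all 18401 tested genes were called higher) or lower (0 of 47, where 0.772% were called lower, 2.04% in either direction). The test was edgeR's quasi-likelihood test, with a threshold of 0.05 on p-values adjusted by the Benjamini-Hochberg method over all genes. The smallest adjusted p was 0.0610, for Polk. At an unadjusted p below 0.05, 10 of the 47 (21.3%) were higher, where 8.51% of all tested genes were, and 0 were lower, where 7.80% of all tested genes were. The 10 were Polk, Ddb2, Ercc8, Fancd2, Poli, Fanca, Ercc4, Ercc5, Rev1 and Lig1. The log2 fold change of oxaliplatin over vehicle was above 0 for 36 of the 47, where 51.0% of all tested genes were above 0, and the median was 0.10 for the 47 and 0.01 for all tested genes. DESeq2 called 3 of the 47 higher, Polk, Ddb2 and Ercc8 (2.80% of all tested genes were called higher by it), and limma voom with quality weights called 1, Polk (2.39%).

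The measured differences were small. Only Fancd2 and Fanca had a log2 fold change beyond 0.5 in size. For 33 of the 47 genes the 95% interval lay wholly within 1.5-fold in both directions, and for the other 14 it reached past 1.5-fold on at least 1 side. No interval lay wholly above 1.5-fold. For each gene, a change inside its own interval is not excluded. The interval ran from 0.98 to 1.16-fold for Ercc1, of smallest standard error, and from 0.62 to 2.91-fold for Fanci, of the largest.

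**Figure D2:**
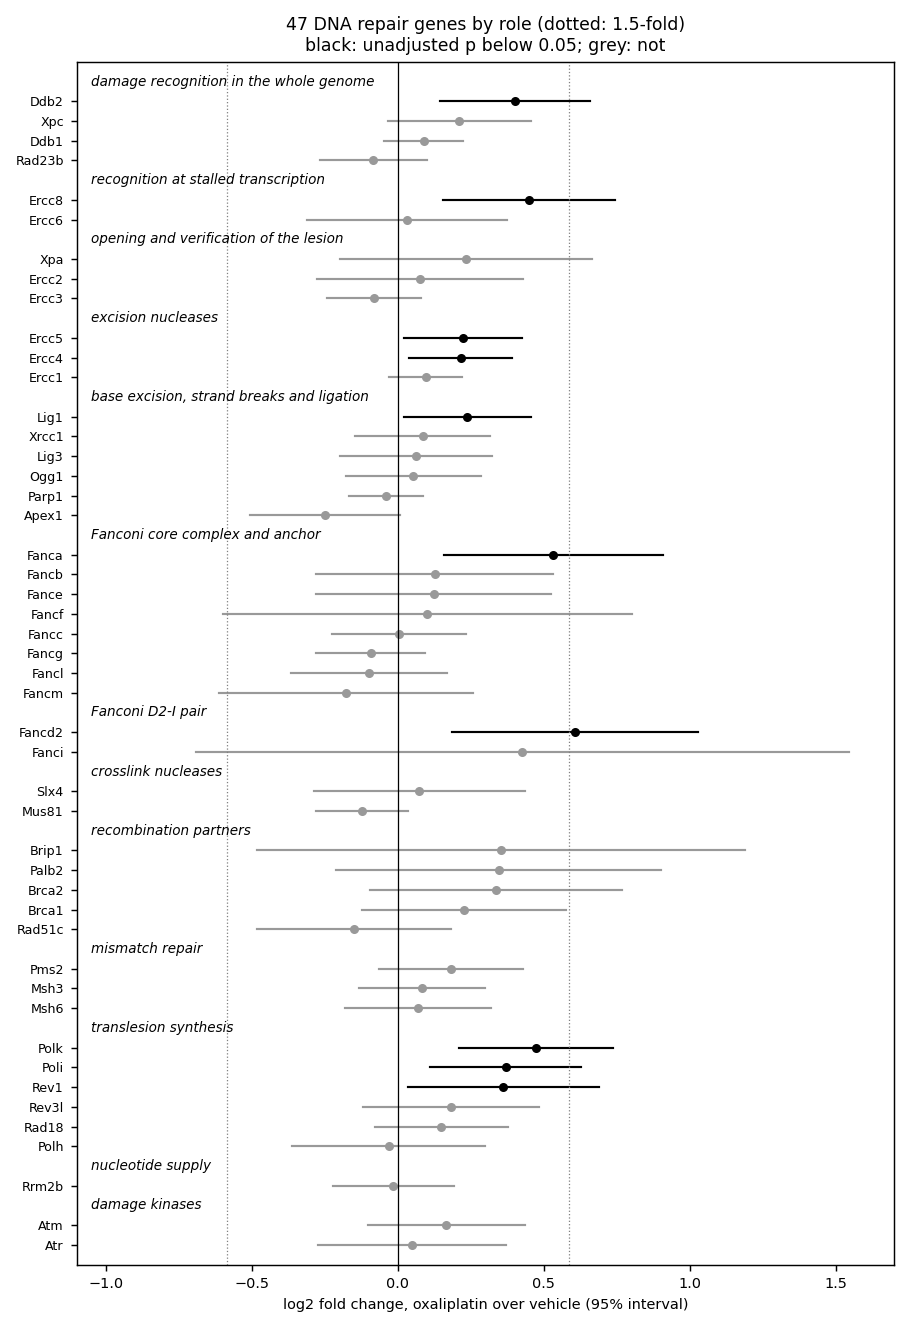
Log2 fold change of oxaliplatin over vehicle for the 47 repair genes, grouped by role, with 95% intervals from the edgeR fit (n = 5 libraries each). Black marks the 10 genes with an unadjusted p below 0.05, all above 0, grey marks the others, and dotted lines mark 1.5-fold. The widest interval is that of Fanci.

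The translesion polymerases held the gene of smallest p. Polk (ENSMUSG00000021668, chromosome 13) codes for DNA polymerase kappa, which extends past bulky lesions and whose transcription depends on p53 in mouse tissue. It had 13.2, 11.9, 14.2, 13.0 and 11.0 CPM in oxaliplatin replicates 1 to 5, against 9.0, 11.4, 8.01, 10.1 and 7.10 CPM in vehicle replicates 1 to 5. Of the oxaliplatin libraries 4 lay above every vehicle library, and replicate 5 lay just below vehicle replicate 2. Its level was 1.39-fold that of vehicle libraries, a log2 fold change of 0.47 ± 0.12 (SE), with a 95% interval of 1.16 to 1.67-fold (edgeR adjusted p = 0.0610). Over the alternatives tried its adjusted p ranged from 0.0116 to 0.198, and besides DESeq2 (0.0116) and limma voom (0.0466) it passed 0.05 without a low-count filter (0.0391, where 0.956% of genes were called higher), with the replicate number as a block (0.0304, where 2.08% were) and without vehicle replicate 2 (0.0284, where 1.13% were). At a threshold of 0.1 Polk alone of the 47 was called, where 2.30% of all tested genes were called higher.

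Poli (ENSMUSG00000038425), which codes for the related polymerase iota, had 5.66, 6.83, 7.71, 7.57 and 7.46 CPM in oxaliplatin replicates 1 to 5. In vehicle replicates 1 to 5 it had 5.59, 5.71, 5.02, 4.98 and 6.00 CPM. The groups overlapped through oxaliplatin replicate 1, which lay within the vehicle range. Its log2 fold change was 0.37 ± 0.12 (SE; edgeR adjusted p = 0.137). Rev1 (ENSMUSG00000026082, chromosome 1), a scaffold that brings the other translesion polymerases to the lesion, had 4.08, 3.61, 3.59, 4.21 and 3.40 CPM in oxaliplatin libraries, against 3.11, 3.29, 2.90, 3.25 and 2.16 CPM in vehicle libraries. Every oxaliplatin library lay above every vehicle library, with vehicle replicate 5 the lowest. For Rev1 the log2 fold change came to 0.36 ± 0.15 (edgeR adjusted p = 0.255). In the reference annotation 26.6% of the exon bases of Rev1 overlap those of Eif5b on the other strand, a gene at 60.1 CPM after oxaliplatin and 57.0 CPM after vehicle with a log2 fold change of 0.08 ± 0.07.

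The other members of this branch lay nearer to 0. Polh codes for polymerase eta, which copies across platinum lesions between adjacent guanines. It averaged 3.88 ± 0.736 CPM after oxaliplatin and 3.97 ± 0.381 CPM after vehicle (SD, n = 5 each), at a log2 fold change of -0.03 ± 0.16. Its 95% interval on the log2 scale ran from -0.36 to 0.30. Rev3l, the catalytic subunit of polymerase zeta, was at 0.18 ± 0.14, and Rad18, the ubiquitin ligase that starts lesion bypass, at 0.15 ± 0.11. Rrm2b, a p53-dependent subunit of ribonucleotide reductase that supplies nucleotides to resting cells, averaged 23.5 ± 1.67 CPM after oxaliplatin and 23.7 ± 3.31 CPM after vehicle. Its log2 fold change was -0.01 ± 0.10, with a 95% interval from -0.22 to 0.19.

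Among the recognition genes of excision repair, Ddb2 (ENSMUSG00000002109, chromosome 2) codes for the damage-binding subunit that hands lesions to the repair machinery, and in human cells it is a p53 target. It had 5.57, 5.16, 5.13, 4.83 and 5.67 CPM in oxaliplatin replicates 1 to 5, against 3.74, 3.74, 4.25, 4.03 and 4.17 CPM in vehicle replicates 1 to 5. The groups did not overlap. Ddb2 was 1.32-fold as high after oxaliplatin, a log2 fold change of 0.40 ± 0.12 (edgeR adjusted p = 0.103). The exons of Ddb2 share 23.8% of their bases with Acp2 on the other strand, which is expressed at 72.9 CPM after oxaliplatin and 74.1 CPM after vehicle and had a log2 fold change of -0.02 ± 0.06. Its partner Ddb1 was at 0.09 ± 0.06, with an interval from -0.05 to 0.22.

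Xpc (ENSMUSG00000030094, chromosome 6), the first sensor of distorted DNA, had 13.2, 12.7, 11.9, 11.4 and 10.7 CPM in oxaliplatin libraries and 10.3, 12.8, 8.53, 11.2 and 9.09 CPM in vehicle libraries. The groups overlapped, with vehicle replicate 2 above 4 of the oxaliplatin libraries. For Xpc the log2 fold change came to 0.21 ± 0.12 (edgeR adjusted p = 0.390). Rad23b, which stabilizes the Xpc protein, was at -0.08 ± 0.09.

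At stalled transcription, Ercc8 (ENSMUSG00000021694, chromosome 13), which codes for the Cockayne syndrome A protein, had 9.87, 7.72, 7.16, 7.48 and 9.74 CPM in oxaliplatin replicates 1 to 5. In vehicle replicates 1 to 5 it had 5.41, 5.91, 7.85, 6.32 and 5.23 CPM. Oxaliplatin replicates 1 and 5 stood clear above all vehicle libraries, while the other 3 overlapped with vehicle replicate 3. Ercc8 was 1.37-fold as high after oxaliplatin, a log2 fold change of 0.45 ± 0.14 (edgeR adjusted p = 0.113). Ercc6, which codes for the Cockayne syndrome B protein of the same step, averaged 5.21 ± 0.916 CPM after oxaliplatin and 5.09 ± 0.979 CPM after vehicle and was at 0.03 ± 0.16.

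The genes that open and check the lesion gave log2 fold changes from -0.08 to 0.23. Ercc3 and Ercc2, the helicases of TFIIH, were at -0.08 ± 0.08 and 0.08 ± 0.17, and Xpa, which verifies the damage, at 0.23 ± 0.20. Among the nucleases that cut out the damaged stretch, Ercc4 (ENSMUSG00000022545, chromosome 16) had 27.44, 25.59, 23.35, 25.32 and 24.34 CPM in oxaliplatin libraries, against 23.14, 23.25, 20.75, 22.47 and 18.96 CPM in vehicle libraries. The groups did not overlap, but oxaliplatin replicate 3 and vehicle replicate 2 were almost level. For Ercc4 the ratio was 1.16-fold, a log2 fold change of 0.21 ± 0.08 (edgeR adjusted p = 0.200). Ercc5 (ENSMUSG00000026048, chromosome 1), which cuts on the other side of the lesion, had 15.02, 16.32, 16.48, 18.33 and 18.28 CPM in oxaliplatin libraries and 15.008, 15.004, 12.55, 16.22 and 13.51 CPM in vehicle libraries. Only oxaliplatin replicate 1 lay within the vehicle range, and the log2 fold change of Ercc5 was 0.22 ± 0.10 (edgeR adjusted p = 0.250). Ercc1, the partner of the Ercc4 protein, was at 0.10 ± 0.06.

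Ddb2, Ercc4 and Rev1 were the genes whose groups did not overlap, all of them higher after oxaliplatin. They are 3 of 47 (6.38%), where 4.02% of all tested genes had groups without overlap in either direction and 2.25% in the higher direction.

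**Figure D3:**
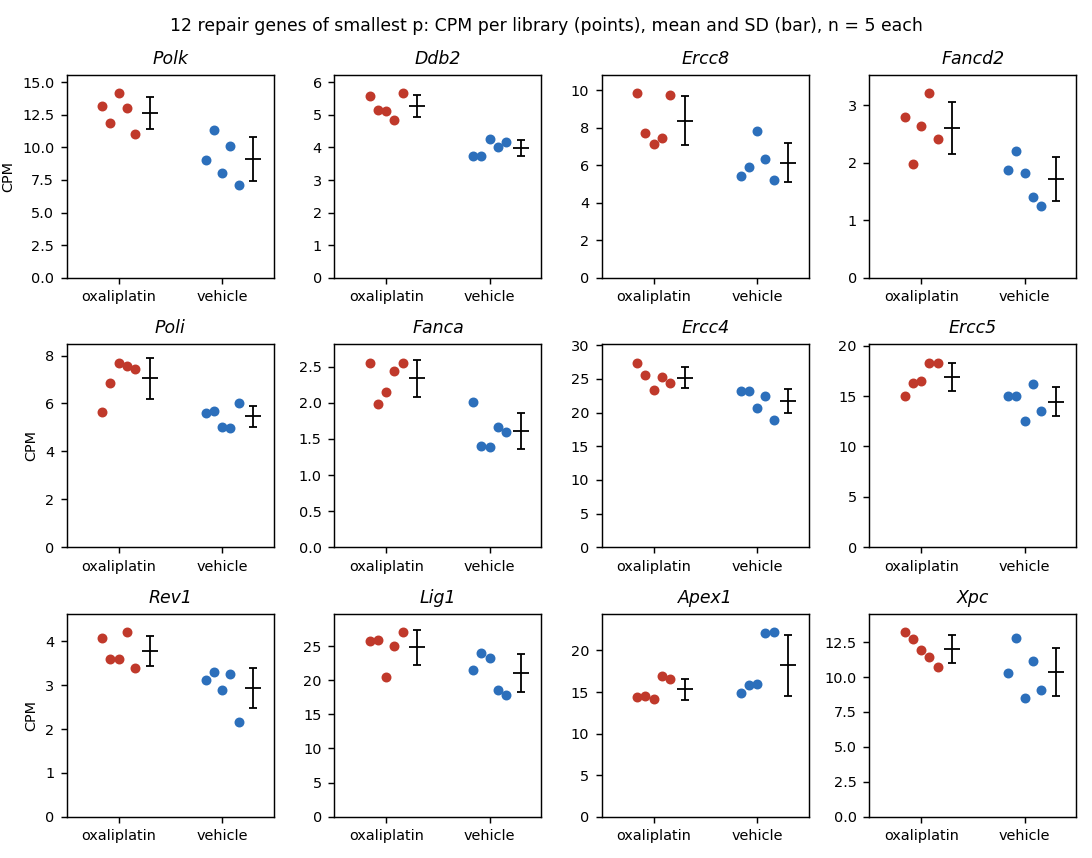
CPM per library of the 12 repair genes of smallest p, oxaliplatin at the left and vehicle at the right of each panel, with the mean and SD of 5 libraries beside the points. The groups do not overlap for Ddb2, Ercc4 and Rev1, and 11 of the 12 genes have the higher mean after oxaliplatin, Apex1 being the exception.

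The start regions of 4 genes from these branches, all with an unadjusted p below 0.05, are shown with their sequence elements. Whether the genes with such a p share elements at their promoters was not tested. RefSeq windows were matched for 40 of the 47 genes. The 7 without one were Xpc, Ercc3, Rev3l, Rrm2b and, among the genes with an unadjusted p below 0.05, Ddb2, Fancd2 and Poli. Each line below gives the 250 bases before the most upstream start of a gene, in the direction of transcription. The windows lie at chr13:96542580-96542829 on the minus strand for Polk, chr13:108158488-108158737 on the plus strand for Ercc8, chr16:13109486-13109735 on the plus strand for Ercc4 and chr1:38129667-38129916 on the minus strand for Rev1 (RefSeq, GRCm38.p6). These genes were chosen after their values were seen. Capitals mark CCAAT boxes (CCAAT) and GC boxes (GGGCGG) on either strand, and no motif searched overlaps another in these windows.
Polk: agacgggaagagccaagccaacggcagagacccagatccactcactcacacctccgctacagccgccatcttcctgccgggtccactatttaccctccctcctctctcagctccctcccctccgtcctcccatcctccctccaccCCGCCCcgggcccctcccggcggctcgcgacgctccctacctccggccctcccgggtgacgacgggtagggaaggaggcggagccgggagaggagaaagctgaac
Ercc8: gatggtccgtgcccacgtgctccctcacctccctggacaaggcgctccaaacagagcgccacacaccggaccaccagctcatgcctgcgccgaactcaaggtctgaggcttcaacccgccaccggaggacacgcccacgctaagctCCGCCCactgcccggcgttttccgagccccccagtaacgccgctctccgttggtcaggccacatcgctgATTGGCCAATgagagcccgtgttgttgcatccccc
Ercc4: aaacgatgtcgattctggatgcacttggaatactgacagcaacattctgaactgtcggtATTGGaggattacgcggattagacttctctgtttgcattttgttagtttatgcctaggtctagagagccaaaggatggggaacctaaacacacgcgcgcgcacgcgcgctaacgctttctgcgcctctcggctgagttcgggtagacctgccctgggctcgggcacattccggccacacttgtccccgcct
Rev1: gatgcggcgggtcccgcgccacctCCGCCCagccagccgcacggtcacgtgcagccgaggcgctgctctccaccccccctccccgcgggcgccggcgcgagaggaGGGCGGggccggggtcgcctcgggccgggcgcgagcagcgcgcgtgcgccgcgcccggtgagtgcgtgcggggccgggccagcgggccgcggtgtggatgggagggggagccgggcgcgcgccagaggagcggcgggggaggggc
Polk and Ercc8 have 1 GC box each and Rev1 has 2, while Ercc4 has none in this window. Ercc8 has a pair of CCAAT boxes that meet on opposite strands, 35 and 30 bases before the start, and Ercc4 has 1 CCAAT box 191 bases before it. No E2F site (TTTGGCGC or TTTCGCGC) and no single copy of the p53 decamer was found in these 4 windows. Of the 40 repair gene windows 21 (52.5%) held a CCAAT box and 25 (62.5%) a GC box, where 34.5% and 33.0% of the windows of 27025 genes did. Those 27025 genes were taken whether or not they were expressed in the ganglia, while all 40 repair genes were. The shares are therefore not those of expressed genes. A p53 decamer lay in 3 of 40 windows (7.5%), those of Fanca, Fancg and Brip1, where 7.16% of all windows held one, and an E2F site in 1 (2.5%, Msh3), where 0.681% did. A match is a run of letters, not a bound site, and sites outside these windows were not searched. Ddb2 and Rrm2b, named above for their link to p53, had no window, so these shares do not cover them.

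In the Fanconi pathway, Fancd2 (ENSMUSG00000034023, chromosome 6), whose ubiquitin tag marks the crosslink for repair, had the largest log2 fold change of the 47. It had 2.79, 1.98, 2.63, 3.21 and 2.42 CPM in oxaliplatin replicates 1 to 5, against 1.88, 2.21, 1.82, 1.41 and 1.25 CPM in vehicle replicates 1 to 5. The groups overlapped through oxaliplatin replicate 2 and vehicle replicate 2. Its level was 1.52-fold that of vehicle libraries, a log2 fold change of 0.61 ± 0.20, with a 95% interval of 1.14 to 2.04-fold (edgeR adjusted p = 0.135). Fanci, which pairs with the Fancd2 protein, was at 0.43 ± 0.53 on 4 to 44 counts per library.

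Fanca (ENSMUSG00000032815, chromosome 8), of the core complex that attaches the tag, had 2.56, 1.98, 2.15, 2.44 and 2.55 CPM in oxaliplatin libraries and 2.01, 1.40, 1.39, 1.67 and 1.602 CPM in vehicle libraries. Only vehicle replicate 1 reached the oxaliplatin range. Fanca was 1.45-fold as high after oxaliplatin, a log2 fold change of 0.53 ± 0.18 (edgeR adjusted p = 0.139). Its exons share 10.5% of their bases with Zfp276 on the other strand, which was at 0.16 ± 0.17. The other core and anchor genes lay lower, from Fancm, the anchor on DNA, at -0.18 ± 0.21 to Fancb at 0.13 ± 0.19. Fancl, the ubiquitin ligase of the complex, was at -0.10 ± 0.13, Fancg at -0.09 ± 0.09, Fancc at 0.00 ± 0.11, Fancf at 0.10 ± 0.33 and Fance at 0.12 ± 0.19. Differences between subunits were not tested.

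Of the 5 recombination genes that act after the crosslink is cut, 2 had 95% intervals within 1.5-fold, Brca1 and Rad51c. Brca2, which acts in repair by homologous recombination, averaged 2.89 ± 0.493 CPM after oxaliplatin and 2.28 ± 0.614 CPM after vehicle, at a log2 fold change of 0.34 ± 0.20. Palb2, which joins the Brca1 and Brca2 proteins, was at 0.35 ± 0.26, the helicase gene Brip1 at 0.35 ± 0.39, Brca1 at 0.23 ± 0.16 and Rad51c at -0.15 ± 0.16. Both crosslink nuclease genes had intervals within 1.5-fold. Mus81 averaged 23.2 ± 0.917 CPM after oxaliplatin and 25.3 ± 1.44 CPM after vehicle, at -0.12 ± 0.07, and Slx4, the scaffold of these nucleases, was at 0.07 ± 0.17.

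Several of these Fanconi and recombination genes are expressed mostly in dividing cells, so markers of dividing cells are given beside them. Of 14 such markers 2 rose, Aurkb (1.97 ± 0.43, edgeR adjusted p = 0.0260) and Top2a (1.64 ± 0.39, edgeR adjusted p = 0.0431), and 0 fell. Aurkb averaged 1.12 ± 0.605 CPM after oxaliplatin and 0.284 ± 0.116 CPM after vehicle (SD, n = 5 each). Mki67, a marker of all dividing cells, was at 0.55 ± 0.31 (edgeR adjusted p = 0.410), and Pcna, the clamp of DNA replication and repair, at -0.03 ± 0.06. The summed level of the list, most of it Pcna, was 71.1 to 84.8 CPM after oxaliplatin and 69.1 to 75.2 CPM after vehicle, and no marker was at 0 in any library. Their part in the values of Fancd2, Fanca and the recombination genes was not tested.

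Base excision and strand break repair held the lowest estimate of the 47. Apex1 (ENSMUSG00000035960, chromosome 14), the nuclease that cuts at sites that have lost their base, had 14.5, 14.5, 14.2, 16.9 and 16.5 CPM in oxaliplatin libraries, against 14.84, 15.86, 16.02, 22.11 and 22.21 CPM in vehicle libraries. Vehicle replicates 4 and 5 stood above all other libraries, and the other 3 vehicle libraries lay within the oxaliplatin range. For Apex1 the log2 fold change came to -0.25 ± 0.12 (edgeR adjusted p = 0.323). The annotation places 61.7% of the exon bases of Apex1 under Pip4p1 on the other strand, which was at -0.13 ± 0.08.

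Lig1 (ENSMUSG00000056394, chromosome 7), the ligase of replication and long patches, had 25.7, 25.9, 20.4, 25.0 and 27.0 CPM in oxaliplatin libraries and 21.5, 24.0, 23.3, 18.5 and 17.8 CPM in vehicle libraries. Oxaliplatin replicate 3 lay within the vehicle range and the other 4 above it. For Lig1 the log2 fold change came to 0.24 ± 0.10 (edgeR adjusted p = 0.260). Lig3 and Xrcc1, which seal single-strand breaks together, were at 0.06 ± 0.12 and 0.09 ± 0.11. Ogg1, which removes oxidized guanine, was at 0.05 ± 0.11. Parp1 averaged 94.1 ± 3.75 CPM after oxaliplatin and 96.9 ± 5.89 CPM after vehicle, at -0.04 ± 0.06, with a 95% interval from -0.17 to 0.09.

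Of the mismatch repair genes, Msh3 was at 0.08 ± 0.10, Msh6 at 0.07 ± 0.12 and Pms2 at 0.18 ± 0.12. The damage kinases Atm, which answers double-strand breaks, and Atr, which answers stalled replication, were at 0.17 ± 0.13 and 0.05 ± 0.15. All 5 of these genes had 95% intervals within 1.5-fold.

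The libraries were not equally placed across the set. Vehicle replicate 5 was the lowest of all 10 libraries for 19 of the 47 genes (40.4%), where it was the lowest for 17.1% of all tested genes. Oxaliplatin replicate 4 was the highest for 10 of the 47 (21.3%; 8.90% of all tested genes) and oxaliplatin replicate 1 for 9 (19.1%; 10.8% of all tested genes). An oxaliplatin library was the highest for 33 of the 47 genes and a vehicle library for 14, where an oxaliplatin library was the highest for 47.3% of all tested genes and a vehicle library for 52.7%. The summed level of the 47 genes was 904, 829, 869, 900 and 868 CPM in oxaliplatin replicates 1 to 5, against 845, 898, 811, 845 and 770 CPM in vehicle replicates 1 to 5. Without vehicle replicate 5, 6 of the 47 (12.8%) were higher at an unadjusted p below 0.05, where 7.87% of all tested genes were, and the genes that dropped out were Ercc4 (0.0507), Ercc5 (0.0623), Rev1 (0.0859) and Lig1 (0.0872). Leaving out any other single library gave 7 to 12 such genes. The 7 (14.9%, where 7.21% of all tested genes were) came without oxaliplatin replicate 4. The 12 (25.5%, where 9.27% were) came without vehicle replicate 2. Without oxaliplatin replicate 1 and vehicle replicate 5 together, 9 (19.1%, where 7.05% were) were higher. These 9 were not all from the 10 named above. Fanci (edgeR unadjusted p = 0.0320) and Brca1 (0.0497) came in, and Ercc4 (0.126), Rev1 (0.154) and Lig1 (0.139) dropped out. Polk, Ddb2, Ercc8, Fancd2, Poli and Fanca stayed below 0.05, unadjusted, whichever single library was left out.

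**Figure D4:**
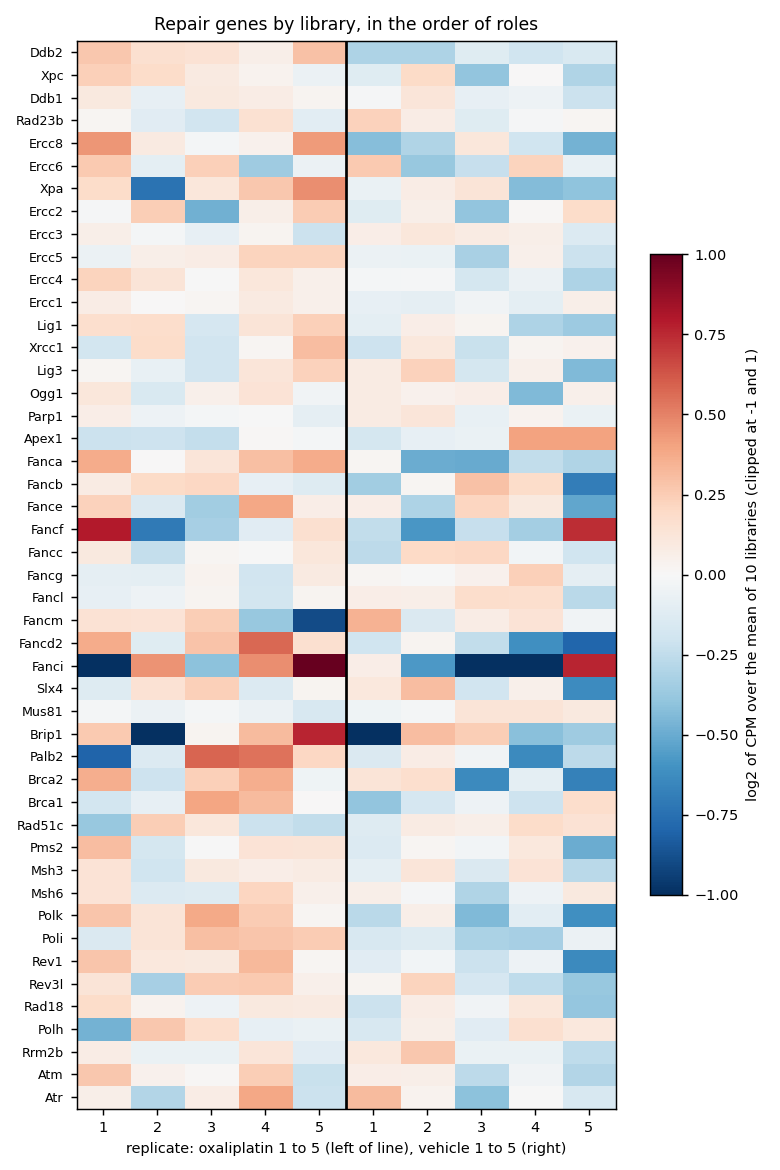
Log2 of the CPM in each library over the mean of the 10 libraries, for the 47 repair genes in the order of their roles, with oxaliplatin replicates 1 to 5 left of the line and vehicle replicates 1 to 5 right of it. Red is above and blue below the mean, clipped at -1 and 1. The column of vehicle replicate 5 is blue for many genes, being the lowest of the 10 for 19 of them.

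Markers of other cell types were read in the same libraries. Summed endothelial markers were at 62.8 to 72.8 CPM after oxaliplatin and 43.6 to 62.9 CPM after vehicle (2 of 6 rose) and pericyte and smooth muscle markers at 147 to 222 CPM after oxaliplatin and 126 to 153 CPM after vehicle (1 of 5 rose). No marker of either list was at 0 in any library. Of 6 fibroblast markers Pdgfra rose (0.62 ± 0.14, edgeR adjusted p = 0.0266). The list summed to 894 to 1130 CPM after oxaliplatin and 762 to 988 CPM after vehicle. Most of that sum was Dcn, with means of 767 CPM after oxaliplatin and 553 CPM after vehicle (edgeR adjusted p = 0.0710). Lum, Col1a1, Col1a2 and Col3a1 lay below 0, at -0.42 ± 0.25, -0.16 ± 0.36, -0.10 ± 0.20 and -0.05 ± 0.30. Of 10 sensory neuron markers the neurofilament gene Nefh fell (-0.63 ± 0.13, edgeR adjusted p = 0.0400). Of 6 satellite glia markers Glul, which makes glutamine, rose (0.38 ± 0.08, edgeR adjusted p = 0.0223) and Fabp7, a fatty acid carrier, fell (-0.98 ± 0.18, edgeR adjusted p = 0.0298), with the list at 2720 to 3965 CPM after oxaliplatin and 3210 to 5015 CPM after vehicle. Of 8 macrophage markers the chemokine receptor gene Cx3cr1 fell (-1.73 ± 0.32, edgeR adjusted p = 0.0145), with the list at 46.4 to 65.6 CPM after oxaliplatin and 45.4 to 82.5 CPM after vehicle. The Schwann cell, adipocyte, skeletal muscle and lymphocyte lists had 0 tested markers past the threshold, and 4 of 7 lymphocyte markers were at 0 in at least 1 library. The part of any of these cell types in the repair genes' values was not tested.

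Other genes of the same pathways were listed by function to set the 47 in their context. Of 106 tested, 1 rose and 0 fell (edgeR adjusted p below 0.05, where 1.27% of all tested genes were higher and 0.772% lower). The gene was Uvssa, which works beside the Ercc8 and Ercc6 proteins at stalled RNA polymerase. Uvssa had 20.6, 17.9, 20.1, 23.1 and 23.6 CPM in oxaliplatin replicates 1 to 5, against 15.3, 16.8, 15.7, 14.0 and 15.5 CPM in vehicle replicates 1 to 5. The groups did not overlap. Its log2 fold change was 0.45 ± 0.09, or 1.36-fold (edgeR adjusted p = 0.0218). Uvssa missed the threshold when oxaliplatin replicate 4 (0.0729) or 5 (0.0733), or vehicle replicate 1 (0.0531) or 4 (0.0751), was left out, and its adjusted p ranged from 0.000571 to 0.0751 over the alternatives.

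The median log2 fold change of these 106 genes was 0.00, with 54 above 0. At an unadjusted p below 0.05, 12 (11.3%) were higher, where 8.51% of all tested genes were. By the same measure 9 (8.49%) were lower, where 7.80% of all tested genes were. Differences between the lists were not tested. By list, other nucleotide excision genes had 5 higher and 4 lower of 26 by that measure, base excision genes 1 and 1 of 20, Fanconi and crosslink genes 4 and 0 of 12, recombination genes 2 and 0 of 13, end joining genes 0 and 3 of 10, lesion bypass genes 0 and 1 of 7, mismatch repair genes 0 and 0 of 5, and damage signalling genes 0 and 0 of 13. The median log2 fold change of the lesion bypass list was -0.08. Among the lists without a call, genes with the smallest p of their list were Slx1b, the catalytic partner of the Slx4 protein (0.35 ± 0.10, edgeR adjusted p = 0.0828), Ube2a, which works with the Rad18 protein (-0.25 ± 0.08, edgeR adjusted p = 0.1003), Lig4, the ligase of end joining (-0.34 ± 0.12, edgeR adjusted p = 0.171), and Mpg, which removes alkylated bases (0.30 ± 0.11, edgeR adjusted p = 0.185). The mismatch repair gene Pms1 (0.27 ± 0.14) and the damage mediator Mdc1 (0.23 ± 0.15) had the smallest p of theirs, at edgeR adjusted p values of 0.373 and 0.472.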

How the data were processed

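RNA from mouse dorsal root ganglia was sequenced in 10 libraries, grouped by the labels' titles. The authors deposited raw counts, 1 row for each Ensembl gene. The submitters' processing notes list STAR 2.5.1a, Partek and DESeq2 but not what each one did. No source used here gives the genome build, annotation, counting step or strand, so reads of genes that overlap on opposite strands cannot be told apart. The table has 40757 rows, of which 276 repeat an Ensembl ID with identical counts and were dropped. Totals ran from 52963470 to 60984426 counts. Libraries of 1 group differed from each other beyond sampling noise (chi-square over its degrees of freedom from 12.0 to 49.3 for each pair), so none were merged. The labels do not say that each library is a different animal, and the p-values speak for the spread among these libraries, which may be technical.

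The groups were compared with edgeR 4.0.16 in R 4.3.3 (filterByExpr, TMM factors, robust quasi-likelihood fit, no covariates, Benjamini-Hochberg adjustment over 18401 genes, threshold 0.05), which was checked on simulated counts. The SE was taken as the size of the log2 fold change over the square root of F, and 95% intervals use it with the fit's degrees of freedom. The biological coefficient of variation was 19.3%. CPM use TMM-scaled totals; exon lengths and exon overlaps come from GENCODE M21, matched by Ensembl ID or symbol for all 47 genes. Promoter windows are from RefSeq. Of the 47 genes, the 12 of smallest p are given per library, the others by level or fold change; of each list of other genes, those called or the 1 of smallest p, except 1 gene that is not reported here. The members and lists were chosen with earlier results of these data known. Alternatives were RLE or no composition factors, no filter or at least 1 CPM in 5 libraries, DESeq2 1.42.0, limma 3.58.1 (voom, library quality weights), 1 surrogate variable (sva 3.50.0), a block for the replicate number, a threshold of 0.1, and leaving out each library. Leaving out oxaliplatin replicate 1 and vehicle replicate 5 together was chosen after seeing the data.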

Additional observations from a re-analysis of the deposited data

Results flagged for a closer look

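In 4 of 94 groups of 5 libraries (each of the 47 repair genes in each group), 1 library lay far from the others by Dixon's test, where chance gives about 1 in 20. Msh3 was lowest in oxaliplatin replicate 2, at 13.2 CPM, where its 4 companions had 15.9 to 16.7 CPM. Ercc3 was lowest in vehicle replicate 5, at 32.3 CPM, where the remaining vehicle libraries had 36.8 to 38.4 CPM. Fancf was highest in the same library, at 1.40 CPM against 0.561 to 0.715 CPM. Ogg1 was lowest in vehicle replicate 4, at 10.1 CPM against 14.1 to 14.5 CPM.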

How the results depend on the processing

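No repair gene was lower past the threshold under any of the 20 alternatives. The count of repair genes called higher, 0 in the edgeR fit, was 3 with DESeq2 (Polk, Ddb2 and Ercc8) and 1, Polk, without a low-count filter, with limma voom with quality weights, with the replicate block and at a threshold of 0.1. It was 0 to 1 when 1 library was left out and 0 under the other alternatives. The other repair pathway genes called numbered 1 in the edgeR fit, 4 with DESeq2 (Uvssa, Pole, Slx1b and Gtf2h4), 2 with limma voom, 3 at a threshold of 0.1, 0 to 4 when 1 library was left out and 0 without oxaliplatin replicate 1 and vehicle replicate 5 together. Over all genes, 376 passed, against 922 with DESeq2, 804 with limma voom, 660 with the replicate block, 728 at a threshold of 0.1, 113 to 594 when 1 library was left out and 218 without both of the libraries named above. Of all calls, 62.2% (234 of 376) were in the higher direction in the edgeR fit, and 75.4% (303 higher and 99 lower) without a composition factor. Leaving out 1 library moved the count of all genes by over 1.5 times for oxaliplatin replicates 1 (221), 2 (594), 4 (113) and 5 (118) and for vehicle replicates 1 (194) and 4 (123). The cause was not tested. No alternative moved the median of all genes by over 0.1. The median log2 fold change of the repair genes tested ranged from 0.08 to 0.14, and 37 of the 47 kept their sign wherever they were tested. With the filter of at least 1 CPM in 5 libraries, 44 of the 47 were tested, as Fanci, Fancf and Brip1 fell below it.

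The replicate numbers are not said to mark shared animals or days. Same-numbered libraries had correlations of -0.04 to 0.21 between their deviations from the group means, and 3 of 5 oxaliplatin libraries correlated best with their own number. Depth limits Fanci, Brip1 and Fancf most, whose means lay below 1 CPM.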

Other observations

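Within the multi-subunit machines of excision repair, the listed genes outside the 47 lay on both sides of 0. Of genes for TFIIH subunits, Gtf2h4 was at -0.24 ± 0.08, Gtf2h3 at -0.24 ± 0.10 and Gtf2h5 at -0.16 ± 0.06 (edgeR adjusted p of each above 0.1), and Gtf2h2 at 0.08 ± 0.08. Of the single-strand binding complex RPA, Rpa1 was at 0.21 ± 0.08 and Rpa2 at 0.20 ± 0.09, and Rpa3 at -0.36 ± 0.14. Pole, the catalytic subunit of polymerase epsilon, averaged 2.97 ± 0.527 CPM after oxaliplatin and 1.72 ± 0.542 CPM after vehicle, at 0.79 ± 0.22 (edgeR adjusted p = 0.0813). In end joining, Xrcc5 and Xrcc6, which form the Ku clamp on broken ends, were at -0.18 ± 0.08 and -0.22 ± 0.10 beside Lig4. These genes were chosen after their values were seen, and none passed the threshold in the edgeR fit, while DESeq2 called Gtf2h4 (adjusted p = 0.0435) and Pole (adjusted p = 0.0203).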
